A study of Drosophila melanogaster with 2 samples.

Results

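The 9 genes described here encode the core drivers of the Drosophila cell cycle: the cyclins CycA, CycB, CycB3, CycD and CycE, the cyclin-dependent kinases Cdk1, Cdk2 and Cdk4, and the phosphatase gene stg. They were listed by symbol, all 9 were found in the Ensembl annotation, and they are 9 of 13968 protein-coding genes on the main chromosome arms. The study mapped sites bound by an eGFP-tagged nerfin-2, a zinc finger protein, in whole embryos by chromatin immunoprecipitation and sequencing (ChIP-seq). Its only group was the transgenic strain nerfin-2-GFP, collected as embryos aged 8 to 24 h and precipitated with an anti-GFP antibody, with 2 biological replicates. Per the labels the insertion targets nerfin-2, and the embryos were used whole, so every cell type is pooled. Fewer bound cells and less binding per cell therefore cannot be told apart. The promoter that drives the fusion, and whether an untagged copy remains, are not stated by the labels. They do name a control, which was not analysed here. Whether the deposited peak signals already allow for it was not tested.

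Cyclins are the switchable subunits of the cyclin-dependent kinases (Cdks): each kinase is active only with its cyclin, and cyclins are made and destroyed in turn. In flies CycD with Cdk4 promotes growth and cycling, CycE with Cdk2 starts DNA replication, and CycA, CycB and CycB3 with Cdk1 bring about mitosis. The phosphatase made from stg, the fly Cdc25, removes inhibitory phosphates from Cdk1, and its timed transcription sets when embryonic cells divide. In embryos of this age many epidermal cells have stopped dividing while neural precursors go on.

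Of the 9 genes, 4 carried a peak at a promoter in the authors' conservative list across both replicates: CycB, Cdk2, Cdk4 and CycA. That is 44.4% of them, against 19.4% of the 13968 protein-coding genes (2709 genes). A gene counts as called when a peak's summit, its highest point, lies within 500 bp of any annotated transcription start site (TSS). CycB stood far above the others, with a peak signal of 556, against 201 at Cdk2, 114 at Cdk4 and 112 at CycA. The signal is the peak caller's own value, and read depth is unknown from the lists. CycB3 was called in the second list across replicates only. CycD, CycE, Cdk1 and stg were in none of the 4 thresholded lists. With 2 samples of 1 group there is no contrast to test, so no p-value is given and each count is set beside its background share.

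The promoters of 5 of these genes are printed as examples and do not stand for all called or uncalled starts. Each sequence below is from the Release 6 genome assembly (dm6), 130 bases long, read 5′ to 3′ on the gene's strand, with 100 bases before the start and 30 from it. Capitals mark matches to the motifs named here for each gene, and matches to other motifs searched below stay in lower case. In CycA (chr3L:11833549-11833678, minus strand) and Cdk2 (chr3R:20735523-20735652, plus strand), both called, they mark TATCGATA, the DNA replication-related element (DRE), a palindrome read by the factors DREF and BEAF-32. In CycB3 (chr3R:24870787-24870916, minus strand), called in the second list alone, they mark GGTCACACT, the core promoter sequence of the zinc finger protein M1BP. At both starts of stg (chr3R:29255296-29255425 and chr3R:29255771-29255900, minus strand), uncalled, they mark the TATA box TATAAA, and at the outer start also an E2F match, here on the opposite strand. Cdk1 (chr2L:10386233-10386362, minus strand), uncalled, held none of these within the printed bases.
CycA: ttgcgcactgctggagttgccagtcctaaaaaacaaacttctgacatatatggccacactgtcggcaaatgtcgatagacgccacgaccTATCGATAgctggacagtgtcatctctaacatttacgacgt
Cdk2: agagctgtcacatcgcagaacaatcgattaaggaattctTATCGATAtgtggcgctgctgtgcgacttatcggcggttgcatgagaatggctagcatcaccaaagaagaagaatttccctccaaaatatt
CycB3: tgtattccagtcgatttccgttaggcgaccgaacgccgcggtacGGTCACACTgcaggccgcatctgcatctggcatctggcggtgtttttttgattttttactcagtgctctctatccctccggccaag
stg inner start: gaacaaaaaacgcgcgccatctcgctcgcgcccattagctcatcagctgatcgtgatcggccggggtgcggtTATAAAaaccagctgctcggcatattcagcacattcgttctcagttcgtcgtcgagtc
stg outer start: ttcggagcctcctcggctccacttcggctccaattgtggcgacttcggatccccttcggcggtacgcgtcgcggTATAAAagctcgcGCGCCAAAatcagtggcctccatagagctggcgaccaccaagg
Cdk1: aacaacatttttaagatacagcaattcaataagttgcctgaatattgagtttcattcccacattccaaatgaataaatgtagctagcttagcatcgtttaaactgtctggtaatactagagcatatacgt

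Across the 4 thresholded lists the count of called genes moved with the list. The second list across replicates held 5 of the 9 genes, adding CycB3, against 21.4% of all protein-coding genes. Replicate 1 alone held 3 (CycB, Cdk2 and CycA), against 18.0% of all genes. Replicate 2 alone held 2 (CycB and Cdk2), against 13.6% of all genes. CycB and Cdk2 were thus the 2 genes present in all 4 lists. A summit in both replicate lists was found at 12.2% of all genes, and at 11.1% when the replicate peaks also had to overlap by 0.5 of each width, a rule that Cdk2 met and CycB did not. Replicate 1 had 2555 thresholded peaks and replicate 2 had 1758, and the part of this difference in the lost call at CycA was not tested. The authors' thresholded lists keep peaks with a score of 830 or more, which is an irreproducible discovery rate (IDR) of 0.01 or less. The relaxed ranked lists hold far more peaks, and all 9 genes had a summit in the ranked list behind the conservative one and in those of replicate 1 and replicate 2. Of all genes, 84.6% had one in the list behind the conservative one, 83.5% in replicate 1 and 81.2% in replicate 2, so a ranked summit by itself sets no gene apart.

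**Figure D1:**
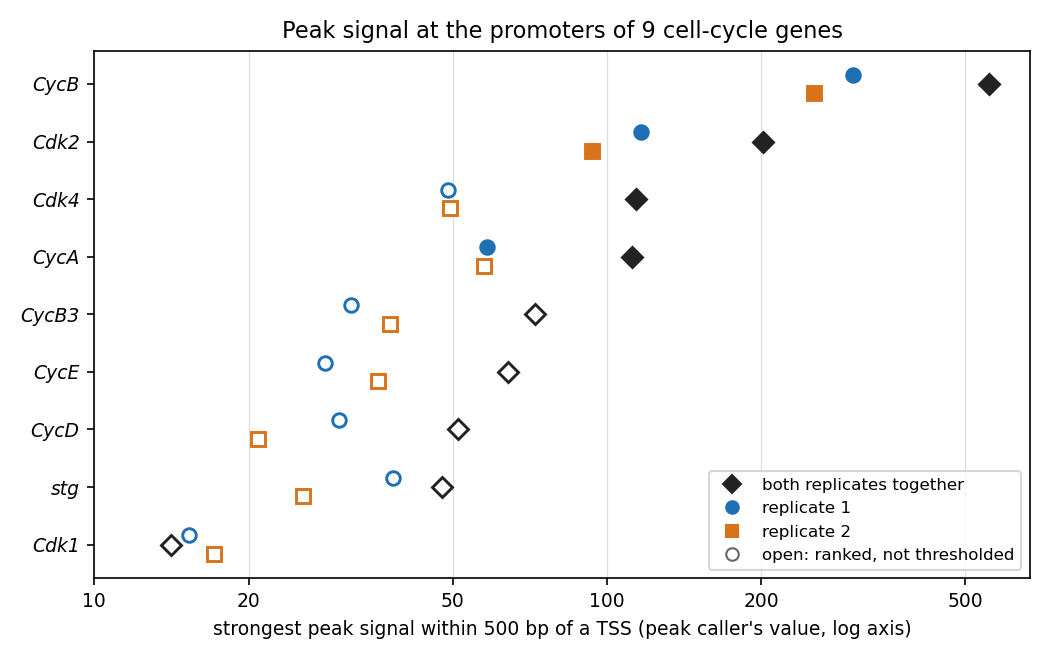
Strongest peak signal within 500 bp of a TSS for each of the 9 genes (x axis, peak caller's value, log scale), for both replicates together (diamonds), replicate 1 (circles) and replicate 2 (squares); filled symbols passed the IDR threshold and open ones were in the ranked list alone. CycB lies at 302 and 254 in the replicates and Cdk1 at 15.3 and 17.1, with the other 7 genes between them.

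Among the mitotic cyclins, CycB (FBgn0000405), which partners Cdk1 at mitosis, had the strongest peak of the 9 genes. The gene lies at 2R 22803521 to 22806948 on the minus strand and has 4 transcripts from 3 starts. Its conservative peak ran from 22806911 to 22807224, with the summit at 22807039, 91 bp upstream of the outermost start, which serves transcripts CycB-RA and CycB-RE. The signal was 302 in replicate 1, 254 in replicate 2 and 556 with both together. Both replicates were high at the same place: the summits lay 6 bp apart, 93 and 87 bp upstream of the start. The peak ranked 28 of 2555 in replicate 1, 24 of 1758 in replicate 2 and 25 of 2796 in the conservative list. Among the 2709 called genes, 98.7% had a lower signal than CycB, and their median was 148. The nearest start of another protein-coding gene, stl, was 821 bp from the summit, so the summit is not shared under the 500 bp rule. The other CycB starts, at 22806303 and 22806499, had no conservative summit in reach.

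The genes most like CycB in their replicate signals were emb, fy and Creld. Likeness was the distance between the pairs of log2 signals over the 2 replicates, among 10273 genes with a ranked summit in both. The export receptor gene emb and the planar polarity gene fy share 1 summit, with 295 in replicate 1, 255 in replicate 2 and 576 together, at a distance of 0.03. Creld had 311, 254 and 574, at a distance of 0.04. These are neighbours in signal over 2 values, and nothing more is drawn from them.

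CycA (FBgn0000404), a cyclin of S phase and mitotic entry, lies at 3L 11826719 to 11833578 on the minus strand with 1 start. Its conservative peak, from 11833378 to 11833777, had its summit on the annotated start itself (0 bp). The signal was 58.4 in replicate 1, 57.7 in replicate 2 and 112 together, the last at rank 1544 of 2796 and just under the list median of 121. The replicates were nearly equal in signal but not in score. Replicate 1 reached 1000 and passed the threshold, and replicate 2 had 408, an IDR of 0.104, and did not. Of the called genes, 31.0% had a lower signal than CycA.

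CycB3 (FBgn0015625), the third mitotic cyclin gene, lies at 3R 24867934 to 24870816 on the minus strand. A peak from 24870606 to 24871005, with the summit 10 bp inside the start, was in the second list with a signal of 72.5, at rank 2746 of 3369. The same peak had a score of 1000 in the ranked list behind the second list and 724 in that behind the conservative list, where its IDR was 0.018. In the replicates the signal was 31.7 in replicate 1, with a score of 56, and 37.7 in replicate 2, with a score of 739. CycB3 was therefore the gene nearest to the conservative threshold among the 5 that did not pass it.

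The G1 and S cyclin genes carried no thresholded peak. CycE (FBgn0010382), which with Cdk2 starts replication, lies at 2L 15727581 to 15748150 on the minus strand and has 3 starts. Its strongest ranked summits lay upstream of the outermost start, at 15748150, by 15 bp in replicate 1, 124 bp in replicate 2 and 65 bp together. Their signals were 28.1 in replicate 1, 35.8 in replicate 2 and 64.1 together. The scores were 44 in replicate 1, 377 in replicate 2 and 583 together, all below 830. The nearest conservative peak, 4342 bp away, was at the start of Mtr4, an RNA helicase gene, with a signal of 111. CycD (FBgn0010315), the partner of Cdk4, lies at X 15906822 to 15909676 on the minus strand. Its signal was 30.0 in replicate 1, 20.9 in replicate 2 and 51.2 together. The strongest summit was 14 bp upstream of the start in replicate 1 and 500 bp upstream in replicate 2, at the edge of the window. Each replicate had 2 ranked summits within 500 bp of the start, and whether the others coincide was not tested. The closest conservative peak to CycD was 17612 bp away, at the dynamin gene shi, with a signal of 507.

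The 3 kinase genes differed widely. Cdk2 (FBgn0004107), the S phase kinase, lies at 3R 20735623 to 20738414 on the plus strand, and its 3 transcripts share 1 start. The conservative peak from 20735374 to 20735773 had its summit 49 bp upstream of that start. The signal was 116 in replicate 1, 93.6 in replicate 2 and 201 together, at ranks 630, 580 and 648 of the 3 lists. Both replicates passed the threshold, with summits 8 bp apart. The start of the microRNA gene mir-995, within Cdk2, was 349 bp from the conservative summit, so that start falls in the same window. Among the called genes, 68.9% had a lower signal than Cdk2.

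Cdk4 (FBgn0016131), the kinase of CycD, lies at 2R 16579470 to 16585448 on the plus strand and has 5 transcripts, each with its own start. Of these, the innermost alone was called. The summit, at 16580767, was 66 bp upstream of the start at 16580833 of transcript Cdk4-RD, in a peak from 16580567 to 16580966. The other starts, at 16579470, 16579564, 16579765 and 16580106, had no conservative summit within 500 bp. The signal was 49.1 in replicate 1, 49.5 in replicate 2 and 114 together. Neither replicate passed alone: the score was 821 in replicate 1, an IDR of 0.0105 just past the threshold of 0.01, and 532 in replicate 2. The same peak reached 1000 in the conservative list, at rank 1509 of 2796. Over the 18 annotated starts of the 9 genes, 4 were called, 1 in each called gene, against 16.9% of the 19630 starts of all protein-coding genes.

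The strongest conservative peak inside Cdk4 was not at any of its starts. It lay in an intron from 16584722 to 16585121, with the summit 5452 bp downstream of the first Cdk4 start, 4089 bp from the nearest of them and 1207 bp from the start of the ribosomal protein gene RpLP2. Its signal was 145 in replicate 1, 84.0 in replicate 2 and 240 together, at rank 436, and both replicates passed the threshold. This intronic peak was thus stronger than the promoter peak in each list. The other conservative peaks in Cdk4 were a pair that overlap each other, at signals of 77.5 and 46.4, with summits 94 and 323 bp from the start of the antisense RNA gene asRNA:CR44375. Of this pair, replicate 1 passed at 57.1 and replicate 2, at 35.9, did not. Among the 9 genes, Cdk4 was the 1 with a conservative summit inside the gene and away from its starts.

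**Figure D2:**
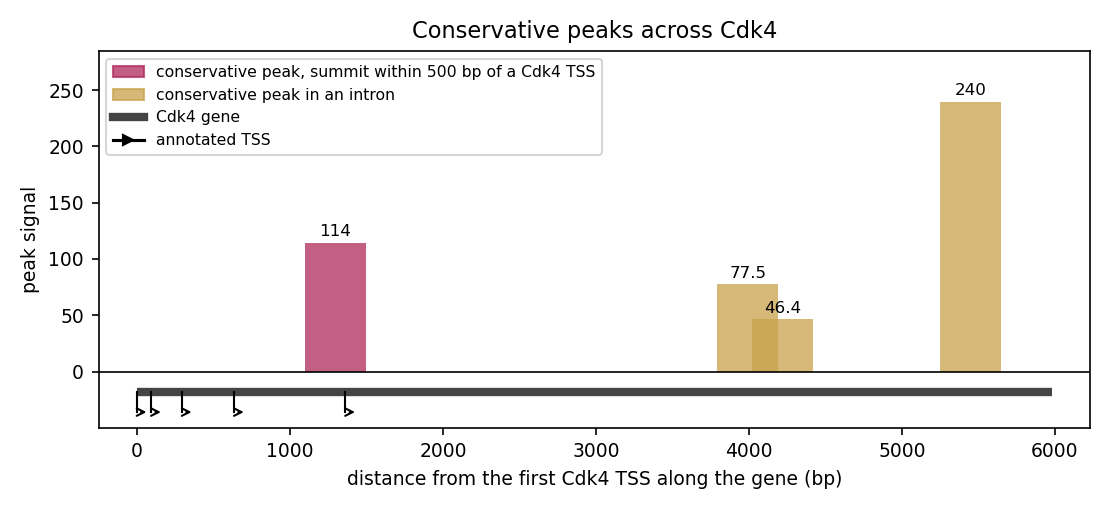
Conservative peaks along Cdk4: distance from the first annotated start in bp (x axis) against peak signal (y axis), with each bar spanning a peak's called interval and small arrows marking the 5 starts. The promoter peak at 114 lies by the innermost start, and the intronic peak at 240 lies near the gene's far end.

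Cdk1 (FBgn0004106), the mitotic kinase and partner of the called cyclins CycA and CycB, had the weakest signal of the 9. The gene lies at 2L 10384739 to 10386262 on the minus strand with 1 transcript. Its ranked summits had a signal of 15.3 in replicate 1, 17.1 in replicate 2 and 14.1 together, the last 0.633 times the median of the 151811 ranked peaks. The replicate summits lay 2 bp apart, 6 and 8 bp upstream of the start, so low signal did not go with scattered summits here. Of the 11817 genes with a ranked summit in the list of both together, 6.35% had a lower strongest signal than Cdk1, against 99.7% below CycB. The share below Cdk1 was larger in the replicates' own ranked lists, at 19.2% in replicate 1 and 31.6% in replicate 2. For CycB it was 99.7% in each. The nearest conservative peak, 1804 bp from the Cdk1 start, belonged to da, which encodes a basic helix-loop-helix factor, with a signal of 74.3 in replicate 1, 64.4 in replicate 2 and 139 together. This peak passed in both replicates.

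The phosphatase gene stg (FBgn0003525) lies at 3R 29251826 to 29255800 on the minus strand, with starts at 29255325 and 29255800. Its strongest ranked signal was 38.2 in replicate 1, 25.6 in replicate 2 and 47.7 together, with scores of 443, 150 and 385. The strongest summits of the replicates lay 923 bp apart. The one in replicate 1 was 132 bp inside the inner start, and that in replicate 2 was 316 bp upstream of the outer start. Each replicate had 3 ranked summits within 500 bp of a start, and whether the others coincide was not tested. The nearest conservative peak was 26208 bp away, at the deubiquitinase gene Usp1, with a signal of 391. Of genes with a ranked summit, 52.8% had a lower signal than stg, so its strongest summit was close to an ordinary one.

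**Figure D3:**
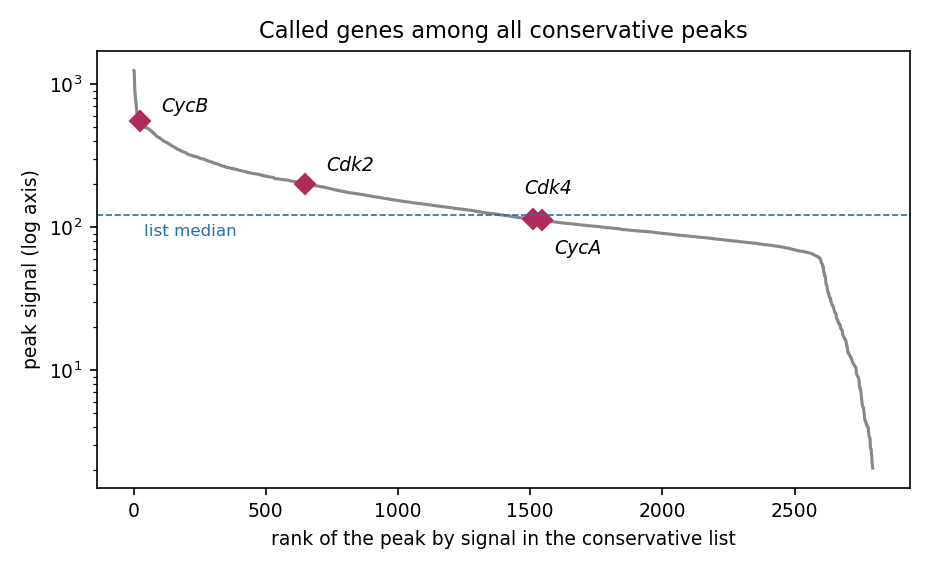
Signal (y axis, log scale) of the 2796 conservative peaks by rank (x axis), with the peaks of the 4 called genes as diamonds and the list median of 121 as a dashed line. CycB at rank 25 and Cdk2 at rank 648 lie above the median, and Cdk4 at rank 1509 and CycA at rank 1544 lie just below it.

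Set in order, the upper part of the range was the same in both replicates and the lower part was the same only in some places. In each replicate the order of the called genes was CycB, Cdk2, CycA and Cdk4. With both replicates together Cdk4 and CycA changed places at 114 and 112, the reverse of their order in each replicate, so these 2 neighbours are not separated. CycB was above Cdk2 by more than either gene's replicates differed. Below them, stg was the highest in replicate 1 and CycB3 in replicate 2, and CycE and CycD also changed places, while CycB3 was above both of them in each replicate. Cdk1 was the lowest of the 9 in both replicates. The called genes spanned 49.1 to 302 in replicate 1 and 49.5 to 254 in replicate 2, and the uncalled ones 15.3 to 38.2 in replicate 1 and 17.1 to 37.7 in replicate 2. These ranges do not overlap, but the call rests on the same peaks, so the gap is a description. The median of the strongest signals was 72.5 over the 9 genes, against 45.4 over the 11817 genes with a ranked summit.

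The called genes were compared with all called genes for how far their replicates differed. The ratio of replicate 1 to replicate 2 was 1.19 at CycB, 1.24 at Cdk2, 0.992 at Cdk4 and 1.01 at CycA. Over 2699 genes called in the conservative list and ranked in both replicates, the median ratio was 1.26, with quartiles of 1.03 and 1.54. CycB and Cdk2 were thus between the quartiles, and Cdk4 and CycA a little under the lower one. The summits of the replicates were 6, 8, 55 and 30 bp apart at CycB, Cdk2, Cdk4 and CycA, against a median of 22 bp with quartiles of 8 and 54 bp. Among the uncalled genes the gap between the strongest summits was 107 bp at CycB3, 109 bp at CycE, 486 bp at CycD, 923 bp at stg and 2 bp at Cdk1.

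A feature that the choice of genes did not use is the promoter sequence under each summit. The DRE, TATCGATA, lay within 50 bp of the summit at 3 of the 4 called genes: from 11 to 4 bases before the start in CycA, from 61 to 54 before it in Cdk2 and from 51 to 44 before the called start in Cdk4. It was at 0 of the 5 uncalled genes, searched at their strongest ranked summit. Over all 2151 conservative promoter summits 22.4% held a DRE in a window of the same 101 bp, and over the 19630 annotated starts 4.47% did. In CycA and Cdk2 the matches are the capitals printed with their promoters above. The share of promoter summits with a DRE also differed by signal. In 4 groups of nearly equal size it was 7.99% in the weakest, 22.5% in the next, which holds CycA and Cdk4, 30.0% in the third, which holds Cdk2, and 29.0% in the strongest, which holds CycB.

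CycB, with the strongest peak, had no exact DRE. It did hold copies of CGATA, the 5 letters at the core of the DRE and of known BEAF-32 sites, a search chosen after seeing the data. Within 100 bp of the CycB summit there were 6 copies on both strands together, against 4 at Cdk4, 3 at CycA and 3 at Cdk2, where each DRE counts as 2 since it reads CGATA on both strands. As many copies were present at 58 of 2151 promoter summits (2.70%). At CycB the copies from 46 to 42 and from 43 to 39 bases before the called start overlap each other on opposite strands. Within 50 bp of the summit CGATA was found at all 4 called genes and at 0 of the 5 uncalled ones, against 62.9% of conservative promoter summits and 23.7% of all starts. At CycA, Cdk2 and Cdk4 this follows from the DRE, which contains CGATA, so the search adds CycB alone. The uncalled genes were searched at weak ranked summits, which at CycD and stg lay 491 and 204 bp upstream of a start. Within 500 bp of a start each uncalled gene did hold CGATA, as from 83 to 79 bases before the start in CycD. CycB also held an M1BP match from 168 to 160 bases before the called start, outside the 101 bp window.

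Other promoter motifs were found near starts of called and uncalled genes alike. At stg a TATA match lay from 28 to 23 bases before the inner start and from 26 to 21 before the outer start, and the outer start also had an E2F match from 13 to 6 bases before it. E2F was searched as TTTNNCGC with each N being C or G on both strands, and it is the sequence read by the factors that switch on S phase genes. CycE had 2 E2F matches before its middle start at 15746610, from 114 to 107 and from 91 to 84 bases before it, and CycB had 1 from 108 to 101 bases before its inner start at 22806303, which was not called. At CycB3 the M1BP match printed above lay from 56 to 48 bases before the start. Within 50 bp of conservative promoter summits, M1BP was at 2.98%, TATA at 9.95% and E2F at 2.09%, against 3.64%, 15.3% and 2.35% of all starts. M1BP, TATA and E2F were within 50 bp of the strongest summit at 0 of the 4 called genes and at 0 of the 5 uncalled ones. The matches at stg, CycE and CycB3 given above are placed by the start and lie outside that window, which is set on the summit of both replicates together. In replicate 1 the CycB3 summit was 43 bp upstream of the start, close to the M1BP match. With 100 bp each side of the summit M1BP was at 1 called and 1 uncalled gene, against 5.25% of conservative promoter summits. The core site of INSM1, a vertebrate counterpart of the nerfin proteins, searched as TGNCAGGGG with N being C or T, was at 0 of the 9 summits and at 1 of 2151 conservative promoter summits. The E-box CACGTG and the sequence TTTGAA, known from vertebrate mitotic genes as CHR, were searched in the same window. Both were at 0 of the 4 called genes and at 0 of the 5 uncalled ones. The GAGA repeat GAGAG was at 1 called gene, Cdk4, and at 2 of the 5 uncalled ones. These 3 were at 1.39%, 11.3% and 8.23% of conservative promoter summits. A match is a run of letters and not a measured site, and a missing match says only that these letters are not in the window.

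**Figure D4:**
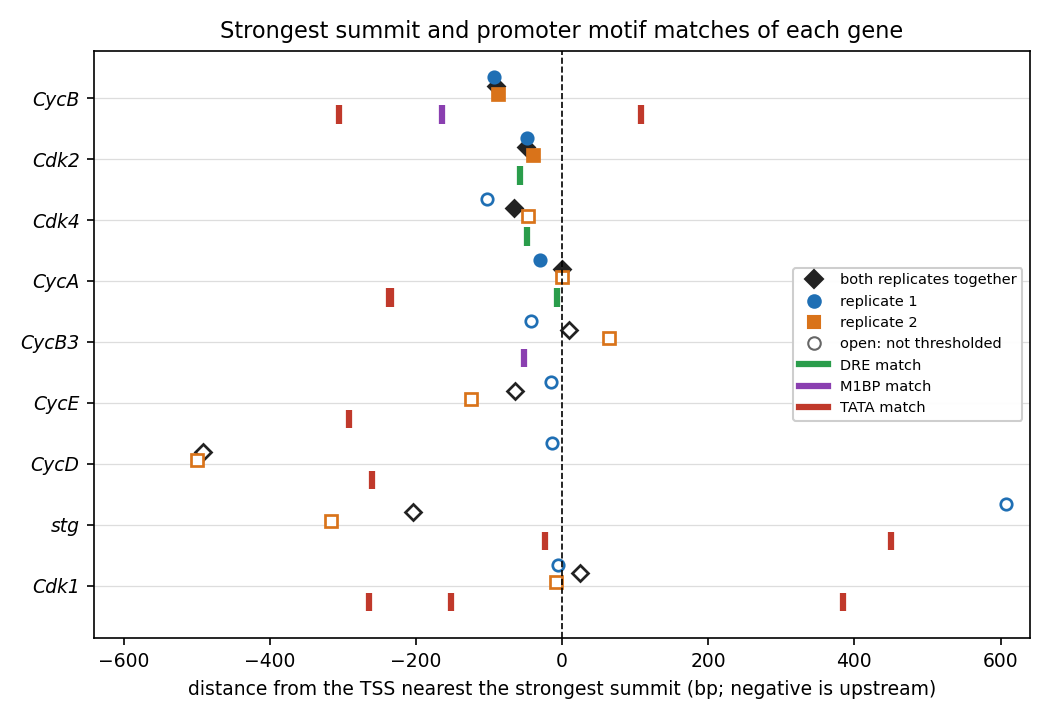
Position of the strongest summit of each gene (upper symbols) and of DRE, M1BP and TATA matches (lower bars) relative to the start nearest the strongest summit of both replicates together (x axis, bp, negative is upstream); filled symbols passed the IDR threshold. The called genes have their summits from 102 bp upstream to the start, and the strongest summits of CycD and stg are 486 and 923 bp apart between replicates.

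Other genes of the cell-cycle machinery were counted in the same way to set the 9 beside their partners. The share of each list stands against 19.4% of all protein-coding genes in the conservative list. Of 16 other cyclin and Cdk genes, 5 were called (31.2%), with a median strongest signal of 73.8 over the 15 with a ranked summit. The highest were Cdk7, the kinase that activates other Cdks, with 225, Cdk9, a transcription elongation kinase, with 116, and CycY with 98.3. Cdk7 shares its summit with snf, and Cdk9 with bonsai, so those summits cannot be assigned to 1 gene. A list of 8 other Cdk regulators held the inhibitor genes dap and rux, the inhibitory kinase genes Wee1 and Myt1, the Cdc25 phosphatase gene twe, trbl and the Cks genes Cks85A and Cks30A. Of these, 1 was called (12.5%), rux, an inhibitor of CycA with Cdk1, at 299.6 and at a summit shared with MCTS1. The median strongest signal of that list was 60.9.

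Genes for E2F, Rb and MuvB proteins, which regulate the transcription of cell-cycle genes, had the largest share among the 5 lists. Of these 11 genes, 8 were called (72.7%), against 19.4% of all protein-coding genes, and the median was 100.1. In both replicate lists 6 of them were called, against the 12.2% of all genes given above. The highest were mip120 with 352, Rbf2 with 313 and Caf1-55 with 214. Of 16 genes for the anaphase-promoting complex, which marks the mitotic cyclins for destruction, and for its activators and inhibitor, 5 were called (31.2%), with a median of 56.5 over 13 genes. They were led by shtd with 581, CG17343, matched through its synonym Cdc26, with 462, and lmgA with 278. Of 15 genes for mitotic kinases with their partners, the spindle checkpoint and separase with its regulators, 8 were called (53.3%), with a median of 87.0. The highest were aurA with 270.2, BubR1 with 214 and Bub1 with 158. Among the genes of the 5 lists, shtd alone had a higher signal than CycB. Summits shared with a neighbouring gene are common here, as at Rbf2, Caf1-55, shtd, lmgA, aurA and Bub1, so a count of genes is not a count of independent sites.

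**Figure D5:**
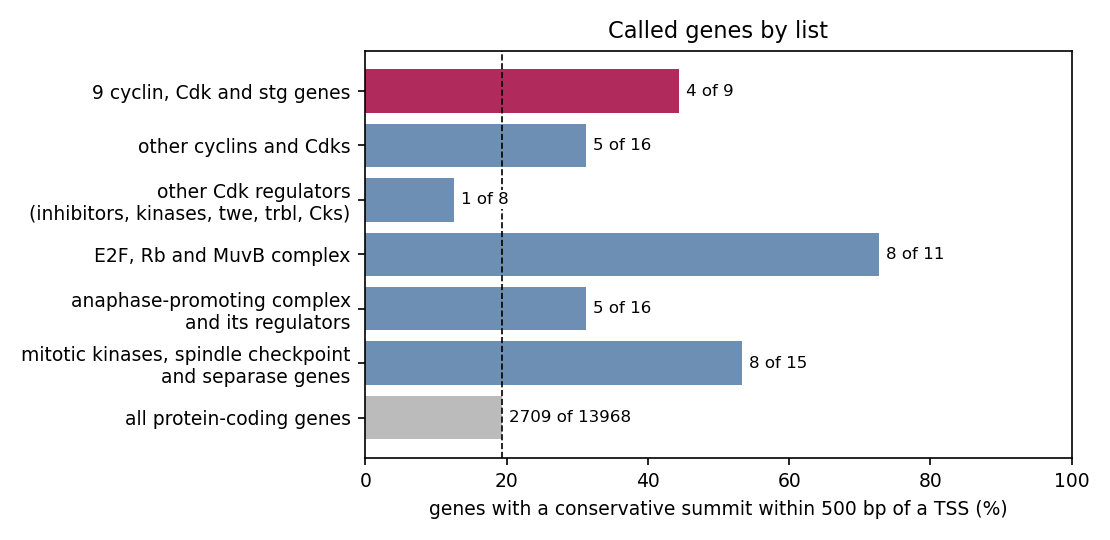
Percentage of genes with a conservative summit within 500 bp of a TSS (x axis) for the 9 genes, 5 other cell-cycle lists and all protein-coding genes, with called and matched genes printed by each bar and the background of 19.4% as a dashed line. The list of E2F, Rb and MuvB genes reaches 72.7%, the 9 genes 44.4% and the list of other Cdk regulators 12.5%.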

How the data were processed

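Peak lists from 2 biological replicates of 1 group were analysed. The authors placed peaks on dm6, per the labels (aligner and peak caller: not given in the sources used here). Each deposited score is higher for a lower IDR. The peak caller's signal value was deposited with it, and the deposited ranked lists also give −log10 IDR, at most 5. Read depth is unknown, and signal was not rescaled between lists. Left out were 16 columns of component calls in ranked lists of both replicates.

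Summits were assigned to every gene with a TSS (Ensembl 115) within 500 bp, with Python 3.11.15, pandas 2.3.3 and NumPy 2.4.6, after a check of the assignment on simulated data. A gene took its strongest summit. Of 67 symbols in 5 other lists, 66 matched, 2 of them by synonym, and CycL did not. Motifs were searched on both strands. Named were the 9 genes, genes sharing a called summit, up to 3 called genes with the highest signal per list, the 3 genes nearest CycB in signal, and, as places, the genes at the nearest conservative peaks, chosen after their values were seen. The genes and lists were chosen with earlier results of these data known. Alternatives were other windows, overlap rules, starts, lists and motif windows.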

Additional observations from a re-analysis of the deposited data

How the results depend on the processing

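Of 71 alternative values of the counts and shares, 60 stayed within 1.5 times the reported one and 11 did not. The 8 alternative signals of the called genes came from windows of 250 and 1000 bp alone and were unchanged. Their summits lie 0 to 91 bp from a start, so the window of 250 bp could not change them. A window of 250 or 1000 bp, peak overlap, the nearest start alone and protein-coding transcripts alone each gave the same 4 called genes. The share of all protein-coding genes under these rules was, in that order, 16.9%, 21.8%, 20.5%, 14.5% and 19.4%. With conservative peaks at or above the median signal alone, the called genes were 2 of the 9 (CycB and Cdk2), 1 of the other cyclins and Cdks, 5 of the E2F, Rb and MuvB genes, 5 of the mitotic kinase, checkpoint and separase genes, and 12.2% of all genes. With the second list, the other Cdk regulators had 2 (rux and trbl). Leaving out a replicate gave 2 to 3 of the 9 genes, 2 to 4 of the other cyclins and Cdks, 1 to 2 of the other Cdk regulators, 5 to 7 of the mitotic kinase, checkpoint and separase genes, and 13.6 to 18.0% of all genes. When replicate peaks had to overlap by 0.5 of each peak's width, 1 of the 9 genes was shared in place of 2, against 11.1% in place of 12.2% of all genes, since the CycB peak was 113 bp wide in replicate 2 and 288 bp in replicate 1. The DRE count stayed at 3 with windows of 25 and 100 bp, against 13.3% and 28.9% of conservative promoter summits. Of all starts, 2.33% and 6.42% held a DRE in these windows. No paired analysis was possible because there was 1 group and no test. Limits are the 2 replicates, the unknown depth, the control that was not analysed here and summits shared between neighbouring genes.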

Other observations

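Among the cell-cycle genes outside the 9, 4 were in a thresholded list but not in the conservative one, all chosen after their values were seen. The kinase gene aurB was in the second list alone, with 62.4. Eip63E, also in the second list, had 59.9 in replicate 1, which passed, and 30.8 in replicate 2, which did not. The gene trbl, whose protein promotes the breakdown of the stg product, was in the second list with 171 and had 130 in replicate 1 and no ranked summit in replicate 2. Rca1, an inhibitor of the anaphase-promoting complex, was in the list of replicate 2 alone, with 38.6. For aurA the order of the replicates was the reverse of the usual one, with 113 in replicate 1 and 173 in replicate 2, and replicate 2 alone passed the threshold. The same held at Cdc27, with 49.7 in replicate 1 and 60.7 in replicate 2. E2f2, Bub1 and Bub3, among others, also had the higher signal in replicate 2, so this order is not particular to aurA.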
